A study of Rattus norvegicus with 98 samples.

Results

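The H3K27ac peak lists of the ventromedial hypothalamus (VMH) after fluoxetine (FT) or vehicle (Sham) are described here. They were chosen by their titles and comprise 4 of the 94 peak lists analysed, 2 Sham-VMH and 2 FT-VMH. The Sham rats drank plain water, and the FT rats received fluoxetine, a selective serotonin reuptake inhibitor, at 18 mg/kg for 6 weeks from 2 months of age. All were naïve male Long-Evans rats without a model of depression, and every replicate was tissue punched from frozen sections and pooled across animals, so that the spread is between 2 pools and not between animals. The other 90 lists cover 24 further brain regions and serve as a reference.

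H3K27ac is an acetylated histone residue that marks active promoters and enhancers, and its peaks map where a tissue keeps regulatory DNA open for transcription. The VMH is a small nucleus of the medial hypothalamus between the arcuate nucleus (arc) below and the lateral hypothalamus (LH) at its side. It is known for its part in satiety and energy balance and in defensive and sexual behaviour, and it receives serotonergic fibres from the raphe. The question was whether chronic fluoxetine altered the set of acetylated sites in this nucleus. A punch holds neurons and glia, and fewer cells of a type and less acetylation per cell cannot be told apart in such tissue.

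The labels were first set against the lists themselves. All 94 lists were reduced to their best 19378 peaks, the length of the shortest, and compared by the Jaccard index, the number of 1 kb windows occupied in both lists divided by the number occupied in either. A window was occupied where peaks covered at least 50% of it. The most similar list of each of the 4 VMH lists was another VMH list. For Sham Rep1 it was FT Rep2, at a Jaccard index of 0.768. For FT Rep2 it was Sham Rep1, and for FT Rep1 it was FT Rep2, at 0.767. Sham Rep2 stood apart. Its closest list was Sham Rep1, at 0.677, and a list of the medial septum (MS Sham Rep1) followed at 0.670, above FT Rep2 of its own region at 0.654. Averaged over the 4 libraries, the regions most like VMH were LH, at 0.636, and MS, at 0.636, while arc came at place 8 of 24, at 0.594. Genes that mark VMH neurons were not analysed here, since no annotation of the Rn5 genome was used.

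Sham Rep2 was also the shortest of the 4 lists. It held 27433 peaks, against 44645 in Sham Rep1, 39604 in FT Rep1 and 47541 in FT Rep2. The FT lists thus lay on either side of Sham Rep1. The mean was 43573 ± 5612 peaks in FT and 36039 ± 12171 in Sham (SD, n = 2 each), a log2 ratio of 0.27. The difference was smaller than the spread between the Sham libraries. A comparison of the group means gave p = 0.667 (exact permutation test, two-sided). With 2 libraries against 2, the smallest p such a test can give is 0.33, so no comparison of single values can pass 0.05. Within replicate number the ratio changed sign. FT Rep1 was shorter than Sham Rep1 by a log2 ratio of -0.17, and FT Rep2 was longer than Sham Rep2 by 0.79. Without Sham Rep2 the log2 ratio of peak number was -0.035, and without Sham Rep1 it was 0.67. The lists carry no read totals, depth is unknown, and a weaker library and a smaller set of acetylated sites cannot be told apart.

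Covered length followed peak number. It was 71.6 Mb in Sham Rep1, 40.5 Mb in Sham Rep2, 63.7 Mb in FT Rep1 and 76.9 Mb in FT Rep2, with a log2 ratio of 0.33 (exact permutation test, two-sided, p = 0.667, n = 2 each). Peaks were of like width in 3 of the lists. The median was 1600 bp in Sham Rep1 and in both FT lists, and 1400 bp in Sham Rep2, a log2 ratio of 0.093 (exact permutation test, two-sided, p = 1, n = 2 each). The best 27433 peaks of each list, which give lists of equal size, differed more. Peaks wider than 2 kb made up 38.2% of them in Sham Rep1, 14.3% in Sham Rep2, 33.2% in FT Rep1 and 43.0% in FT Rep2. Sham Rep1 lay between the FT libraries in this measure as well. The filter score at the summit (maxScore), by which peaks were ranked, had a median of 93.6, 75.7, 87.1 and 97.5 in the same order. In Sham Rep2, 82 peaks reached the upper limit of the p-value scale, against 1312 in Sham Rep1, 770 in FT Rep1 and 1979 in FT Rep2.

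**Figure D1:**
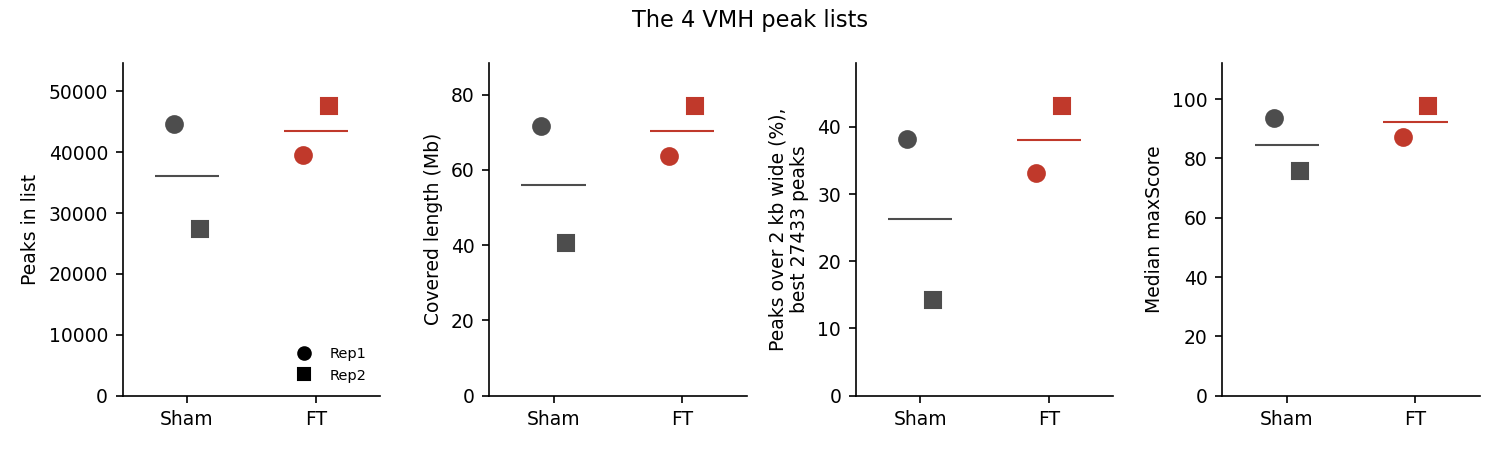
Peaks per list, covered length in Mb, share of peaks over 2 kb among the best 27433 in percent, and median maxScore of the 4 VMH lists. Circles are Rep1, squares are Rep2 and lines are group means of 2. Sham Rep2 is the lowest point in each panel, and Sham Rep1 lies between the FT libraries in each.

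Which sites carried the mark in 1 treatment and not in the other was asked with windows of 1 kb. On the full lists 92828 windows were occupied in at least 1 VMH library and 36213 in all 4. Both FT libraries and neither Sham library occupied 3859 windows (4.16% of those occupied), called FT-higher below. The reverse, Sham-higher, held for 303 windows (0.326%). The 4 libraries can be paired in 2 further ways, each of which sets 1 Sham and 1 FT library against the other 2. Windows shared by both Rep1 libraries alone numbered 2138, and by both Rep2 libraries alone 323. The crossed pairs gave 7881 windows held by Sham Rep1 and FT Rep2 alone and 312 by Sham Rep2 and FT Rep1 alone. In total 4162 windows separated the treatments, 2461 the replicate numbers and 8193 the crossed pairs, so that treatment did not give the largest count. With 3 pairings no p-value was computed.

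The picture on the lists of equal size was similar. Of 68592 occupied windows, 33524 were occupied in all 4 libraries. FT-higher windows numbered 2582 (3.76%) and Sham-higher windows 526 (0.767%). Rep1 alone held 1681 windows and Rep2 alone 431. Sham Rep1 with FT Rep2 held 3403, and Sham Rep2 with FT Rep1 held 424. The treatments were separated by 3108 windows, the replicate numbers by 2112 and the crossed pairs by 3827. The pairs with many windows of their own were those without Sham Rep2. As many as 8623 windows were missing from Sham Rep2 alone, against 656 to 1114 windows missing from any other single library. With Sham Rep2 left out, both FT libraries without Sham Rep1 held 3303 windows, and Sham Rep1 without either FT library held 4471. On full lists these counts were 4284 and 7634. The FT count needs 2 libraries to agree and the Sham count only 1. These counts therefore cannot show whether the excess on the FT side rests on Sham Rep2.

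**Figure D2:**
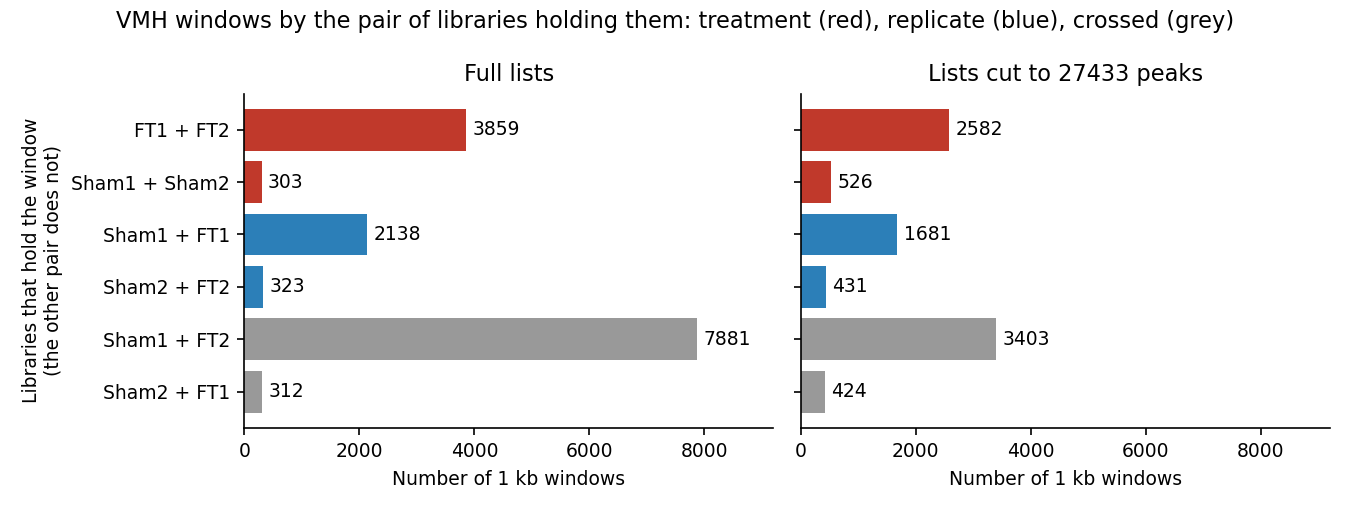
Number of 1 kb windows held by each pair of VMH libraries and not by the other pair, on full lists (left) and on lists cut to 27433 peaks (right). Treatment pairs are red, replicate pairs blue and crossed pairs grey. Sham1 with FT2 gives the longest bar on both sides, 7881 and 3403 windows, above the 3859 and 2582 of the FT pair.

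The similarity of whole libraries gave the same order. On lists of equal size the Jaccard index of the FT libraries was 0.745 and that of the Sham libraries 0.616. Sham Rep1 was as similar to the FT libraries as these were to each other, at 0.736 with FT Rep1 and 0.755 with FT Rep2. Sham Rep2 reached 0.624 with FT Rep1 and 0.599 with FT Rep2. The mean of same-treatment pairs exceeded that of FT-Sham pairs by 0.00196, far less than the SD of 0.0785 over the 4 FT-Sham pairs. Without Sham Rep2 the difference was -0.00036, and without Sham Rep1 it was 0.134. Between Sham Rep1 and FT Rep1, 8988 windows were held by the Sham library alone and 6940 by the FT library alone. Between Sham Rep2 and FT Rep2, these numbers were 4737 and 19226. The direction of the treatment difference was therefore not the same within the 2 replicate numbers.

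VMH was among the regions where treatment separated the libraries least. The log2 ratio of treatment-separating windows to the mean of the other pairings was 0.066 in VMH on lists of equal size, at place 19 of the 21 regions with 4 libraries. Its median over these regions was 0.998, and it was above 0 in 19 of them. In 17 regions, treatment gave the largest of the 3 counts, and VMH was not among them. On full lists the ratio was -0.36 in VMH, again at place 19. The gap in length between the Sham libraries of VMH, 0.70 on the log2 scale, was the third largest of the 21 regions. LH, the neighbour most like VMH, had a similar gap of 0.62 and a ratio of 0.21. The lateral septum (LS) had a gap of 0.72 and a ratio of 0.96, and the part of the gap in the ratio was not tested. Regions share the pooled animals, and the comparison of regions is a description.

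**Figure D3:**
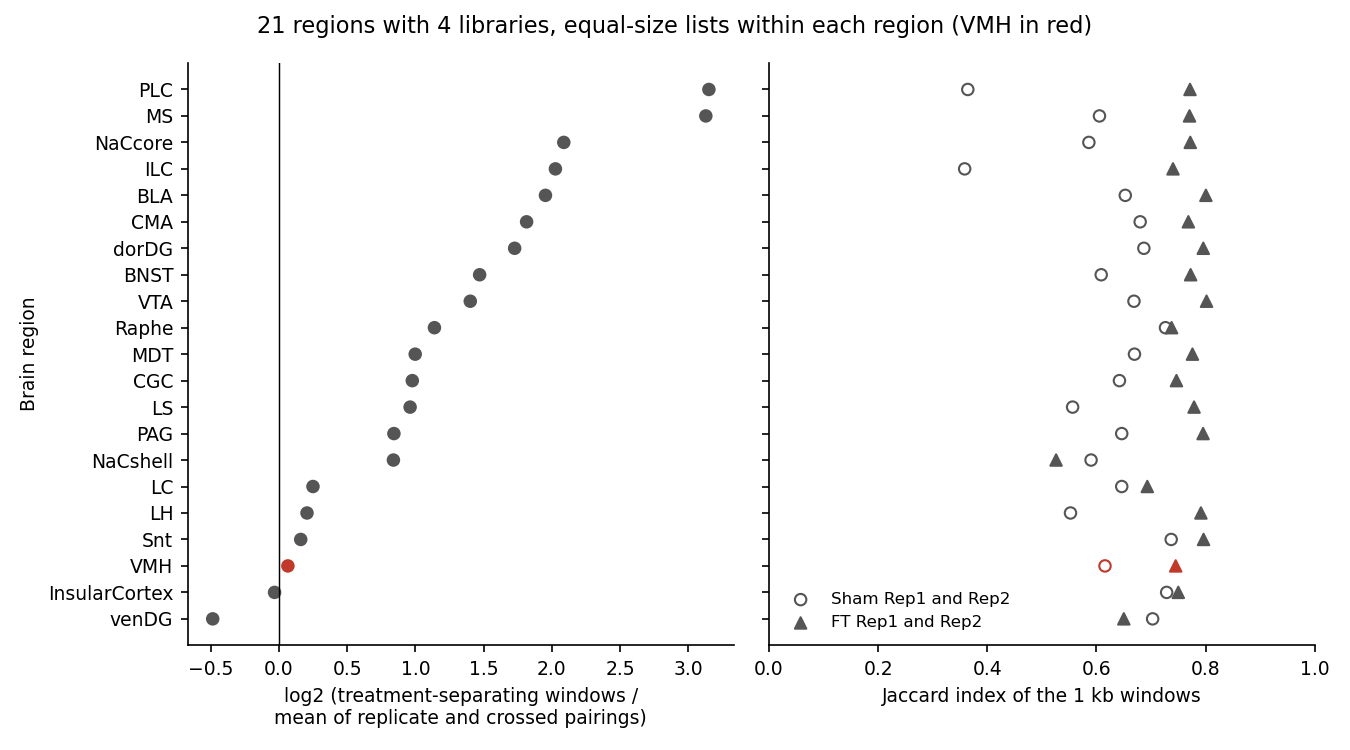
Left, log2 ratio of treatment-separating windows to the mean of the replicate and crossed pairings in 21 regions. Right, Jaccard index of the Sham pair (open circles) and of the FT pair (triangles) of each region. VMH, in red, stands at 0.066 on the left, with the Sham pair at 0.616 and the FT pair at 0.745 on the right.

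Most FT-higher windows were touched by a peak of Sham Rep1, and fewer by one of Sham Rep2. Peaks of the full list of Sham Rep1 left 3.64% of them without a base, and those of Sham Rep2 left 55.3%. Of the 2582 FT-higher windows on lists of equal size, 96.6% were touched by a peak in the full list of a Sham library, against 98.2% of Rep1 windows and 94.1% of windows of Sham Rep1 with FT Rep2 in the lists without them, and 1040 (40.3%) were occupied there. Since the list of Sham Rep2 was not shortened, these 1040 were all windows of Sham Rep1. The median FT-higher window had 698 bases covered in FT Rep1 and 727 in FT Rep2, against 481 bases in the full list of Sham Rep1 and 0 in that of Sham Rep2. The peaks holding FT-higher windows ranked at a median maxScore percentile of 54.0 in their own lists, those holding windows shared by all 4 libraries at 78.6. A window occupied in a Sham library lay next to 53.1% of FT-higher windows, and 38.8% were more than 5 kb from one. For the Rep1 windows these shares were 44.5% and 46.2%. Most changed windows stood singly. The FT-higher windows formed 2255 stretches, of which 1930 were a single window and the longest was 3 kb.

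Sham-higher windows were placed otherwise. They lay next to a window occupied in FT in 20.2% of cases and over 5 kb from one in 63.5%. They held the centre of their peak in 73.4% of cases, against 37.3% of FT-higher windows. Yet 406 of the 526 (77.2%) were occupied in the full list of an FT library, where the peak had ranked below place 27433. The windows of Sham Rep2 with FT Rep1 resembled them, with 78.7% holding the peak centre and 369 of 424 occupied in the full list of a library without them. No chromosome stood out. FT-higher windows made up 2.81% of occupied windows on chromosome 18, the lowest share, and 4.63% on chromosome 15, the highest, and 4.09% on chromosome X.

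Windows without a single base of a peak in the full lists of the pair not holding them were few. There were 87 FT-higher windows without a Sham base and 9 Sham-higher windows without an FT base. The Rep1 and Rep2 pairs had 30 and 12 windows without a base of the opposite pair, and the crossed pairs had 202 and 7. Of the 87 windows, 46 were more than 5 kb from any Sham peak. They were of middling strength, with a median maxScore percentile of 46.2. They were found in a median of 15 other regions per window, and 1 of the 87 was found in VMH alone. The median was 18 for all FT-higher windows and 23 for all occupied VMH windows, so the 87 were less widespread than this background.

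The stretches named here separated the treatments on the full lists and on the lists of equal size, which 1542 FT-higher and 120 Sham-higher windows did. They are the longest stretches, with ties broken by maxScore, and are given by position on Rn5 without genes. The 10 FT-higher stretches were 2 kb long, and 3 of them held no Sham peak. At chr3:153826001-153828000 the maxScore was 89.3 in FT Rep1 and 128 in FT Rep2, with no peak in either Sham library. The stretch was occupied in 68 of the 90 libraries of other regions, 40 FT and 28 Sham. At chr8:116090001-116092000 the maxScore was 113 in FT Rep1 and 95.8 in FT Rep2, again with no Sham peak. Only 5 libraries of other regions held it, from arc, the medial preoptic area (MPOA) and the ventral tegmental area (VTA), 4 of them FT. This was the stretch with the fewest other regions among the 10. An excess of FT libraries elsewhere was common to most VMH windows. Of all occupied VMH windows, 91.5% on full lists and 94.4% on lists of equal size were held by more FT than Sham libraries of other regions.

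At chr5:53451001-53453000 the maxScore was 87.5 in FT Rep1 and 103.3 in FT Rep2, without a Sham peak. It was occupied in 15 other libraries, 8 FT and 7 Sham, from arc, LH, the paraventricular nucleus (PVN), the raphe, the locus coeruleus (LC) and the periaqueductal grey (PAG). The 7 other FT-higher stretches held part of a Sham peak. The strongest of them, chr18:60458001-60460000, was the flank of a site with a maxScore of 439 in Sham Rep1, 229 in Sham Rep2, 354 in FT Rep1 and 432 in FT Rep2. Peaks covered 1505 of its 2000 bases in FT Rep1 and 1514 in FT Rep2, against 404 in Sham Rep1 and 1 in Sham Rep2. The scores of this site overlapped between the groups. The covered bases could not overlap, since the stretch was chosen by them.

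The 10 Sham-higher stretches were single windows. In 9 of them the FT libraries covered 401 to 499 bases and the Sham libraries 501 to 693, so that these windows lay close to the threshold of 50% on either side of it. The exception was chr3:14905001-14906000. It lay inside peaks 5900 bp wide in Sham Rep1 and 6000 bp in Sham Rep2, with maxScores of 428 and 245, and held no base of an FT peak. FT peaks began in the adjoining window. In other regions the window was occupied in 28 Sham and 25 FT libraries from 18 regions.

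How many changed windows were active in other regions was then counted, with the full lists of the 24 other regions. Of the 2582 FT-higher windows, 2570 (99.5%, Wilson 95% interval 99.2 to 99.7%) were occupied in at least 1 library elsewhere, and so were 68008 of all 68592 occupied VMH windows (99.1%). All 526 Sham-higher windows were (lower limit 99.3%), as were 1674 of the 1681 Rep1 windows and all 33524 windows shared by the 4 libraries. Neighbouring windows are not independent, and these intervals cover counting error only. Without the habenula (HB), the region least like VMH, the FT-higher share was again 99.5%. The median number of other regions was 18 for FT-higher, 20 for Sham-higher, 19 for Rep1 and 24 for shared windows. All 24 regions held 16.2% of FT-higher and 79.8% of shared windows. Changed windows were thus found in fewer regions than shared ones, whichever pair of libraries they separated. Counting the Sham libraries of other regions alone, 2528 (97.9%) of the FT-higher windows were occupied, and 98.1% of all occupied VMH windows. Presence in another region was therefore near its background for FT-higher windows.

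By region, FT-higher windows were occupied most often in LH (85.7%) and arc (84.7%), followed by VTA (80.4%) and MS (78.8%), and least often in PAG (48.6%). All occupied VMH windows gave 91.5%, 87.6%, 88.9%, 89.3% and 68.0% in these regions, so that FT-higher windows lay below the background in each. Sham-higher windows were occupied in LH in 97.3% and in arc in 86.1%. The 4 other hypothalamic and preoptic regions (LH, arc, PVN and MPOA) held 98.1% of FT-higher windows, and 36 windows were found only in regions outside them. VMH windows found in no other region numbered 1900 on the full lists. Of these, 1734 were held by a single VMH library, 143 by 2, 23 by 3 and 0 by all 4.

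**Figure D4:**
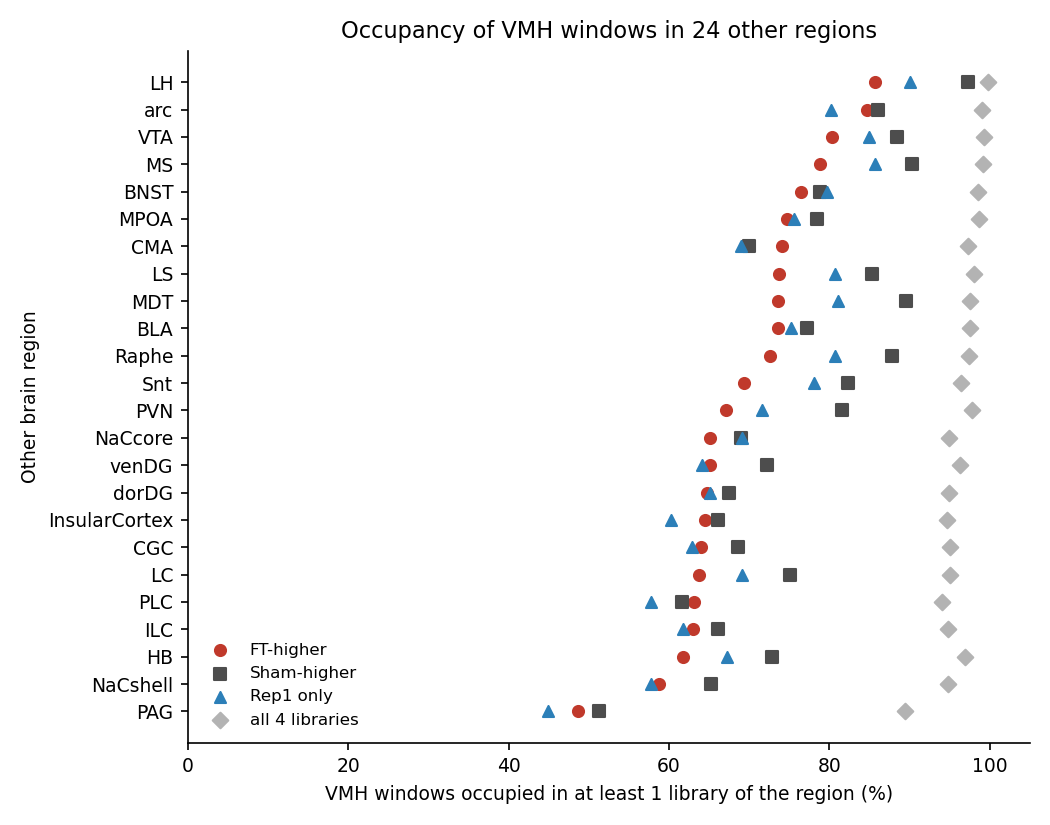
Share of VMH windows, on lists of equal size, occupied in at least 1 library of each of 24 other regions, in percent. FT-higher windows (red circles) range from 48.6% in PAG to 85.7% in LH, and windows shared by all 4 VMH libraries (grey diamonds) lie to the right of every other set in each region. Each library counts on its full list.

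The direction of the difference in other regions was compared over the 20 other regions with 4 libraries, each on its own lists of equal size. In at least 1 of these, 1669 of the 2582 FT-higher windows (64.6%) also separated FT from Sham upwards, and 345 (13.4%) downwards. For all occupied VMH windows these shares were 41.0% and 11.5%. However, the crossed pair of Sham Rep1 with FT Rep2 reached 65.3% and 15.3%, and the Rep1 pair 56.2% and 17.4%. The overlap with FT-higher windows elsewhere was therefore as large for a pair that mixes the treatments. It was highest in MS, where 21.7% of the FT-higher VMH windows were FT-higher, against 12.4% of all VMH windows, 20.6% of Rep1 windows and 27.8% of the windows of Sham Rep1 with FT Rep2.

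A punch of VMH can take in its neighbours, and the share of their sites was measured in each library. Windows occupied in all 3 arc lists and in none of the 4 LH lists numbered 7162. On lists of equal size, Sham Rep1 held 7.94% of them, Sham Rep2 2.78%, FT Rep1 10.5% and FT Rep2 11.97%. Windows occupied in all LH lists and no arc list numbered 3308. Of these Sham Rep1 held 38.8%, Sham Rep2 15.3%, FT Rep1 31.2% and FT Rep2 35.6%. The number of arc windows per LH window in the same library was 0.443 in Sham Rep1, 0.393 in Sham Rep2, 0.725 in FT Rep1 and 0.729 in FT Rep2. This ratio was 0.727 ± 0.0026 in FT and 0.418 ± 0.036 in Sham (SD, n = 2 each; exact permutation test, two-sided, p = 0.33, the smallest possible). The groups did not overlap, and Sham Rep2 lay near Sham Rep1 in this measure. On full lists the ratios were 0.717, 0.393, 0.914 and 1.01 in the same order.

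The same was done for every other region against LH. The ratio was higher in both FT libraries than in both Sham libraries for 17 of 23 regions on lists of equal size and for 12 of 23 on full lists, and lower for 0. With arc in the place of LH it was lower in both FT libraries for 8 of 23 regions and higher for 1. The regions share libraries and these counts are not independent. Against LH, the crossed pair of Sham Rep1 with FT Rep2 lay above both remaining libraries in some regions. The raphe, VTA and the solitary tract nucleus (Snt) did so on both kinds of list. On full lists LC, PAG, the mediodorsal thalamus (MDT), the core and shell of the accumbens and the infralimbic cortex did so too. Raphe ratios on full lists were 0.334 in Sham Rep1, 0.417 in FT Rep2, 0.0535 in Sham Rep2 and 0.217 in FT Rep1. With arc in the place of LH, on lists of equal size, this crossed pair lay above in the raphe, VTA, LC, PAG, Snt and MDT. It also did so in the accumbens core, bed nucleus, cingulate and insular cortex, dorsal dentate gyrus and the amygdala sample CMA. Raphe ratios against arc were 0.920 in Sham Rep1, 0.707 in FT Rep2, 0.556 in Sham Rep2 and 0.629 in FT Rep1. For the shares that follow, a window counted as occupied in a region if at least 1 of its lists held it. Arc has no list for Sham Rep2, so its lists are mostly FT, while LH has all 4. The part of this imbalance in the shares, and in the ratios of arc to LH windows above, was not tested. Among the FT-higher windows 313 (12.1%) were occupied in arc and not in LH, and 338 (13.1%) in LH and not in arc. Windows in arc and not in LH made up 2.66% of the Sham-higher windows, 7.91% of the Rep1, 6.03% of the Rep2, 6.76% of the Sham Rep1 with FT Rep2 and 7.78% of the Sham Rep2 with FT Rep1 windows, and 4.42% of all occupied windows. On full lists the share was 17.7% for FT-higher windows, against 8.91%, 13.0%, 14.9%, 11.0% and 17.0% in the same order and 7.71% of all, so that a crossed pair came close to it. Where the punches lay and how acetylation changed cannot be told apart in these lists. These comparisons were chosen after the data had been seen.

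Finally, strength was compared at sites that every library held. Joining overlapping peaks gave 56700 elements, of which 24306 (42.9%) had a peak in all 4 lists. A further 9625 were missing from Sham Rep2 alone, 1853 were held by the FT libraries alone and 180 by the Sham libraries alone. Norm-tag-count, the authors' normalised tag count of a peak, was compared on ranks after quantile normalisation, with limma across all 24306 elements and Benjamini-Hochberg adjustment. At an adjusted p of at most 0.1 and a log2 difference of at least 0.32, the limits of the study, 16 elements (0.0658%) were called, 15 higher and 1 lower in FT. These calls rest on ties. Norm-tag-count was deposited in whole numbers, with 19 to 35 distinct values per list, and the 24306 elements showed only 674 different sets of 4 values. Of the 15 higher elements, 13 had the same set, 4 in Sham Rep1, 3 in Sham Rep2, 5 in FT Rep1 and 6 in FT Rep2. After normalisation these had a log2 difference of 0.39 with an SE of 0.0013. The element with the lowest p, at chr13:88383074-88385477, had Norm-tag-counts of 6, 4, 7 and 9 and the same log2 difference of 0.39 (limma adjusted p = 0.000228). The lowest p among elements lower in FT was at chr12:16068708-16071119, with counts of 17, 10, 13 and 17 and a log2 difference of -0.14, which did not reach the limit on size. The next 9 elements lower in FT all had counts of 6, 4, 4 and 5 and a log2 difference of -0.26. With the replicate block in the fit 20 elements were called, all higher in FT.

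The filter score of the same peaks is a finer scale, and was compared in the same way after the ties had been seen. Of the 24306 elements 96 (0.395%) were called, 41 higher and 55 lower in FT, and none of them was among the 16 called on Norm-tag-count. The 16 had the same direction on both scales, and the lowest adjusted p among them on maxScore was 0.179 (limma). The log2 differences on the 2 scales had a rank correlation of 0.52 over all elements. The shared direction is thus not a separate observation. As deposited, the scores of FT and Sham did not overlap in 40 of the 41 higher elements and in 6 of the 55 lower ones. Over all elements the deposited scores lay wholly above in FT in 15.7% and wholly below in 0.243%. Percentiles of maxScore within each list did not overlap in 41 of the 41 higher and 54 of the 55 lower elements, and over all elements in 19.6% with FT above and in 19.5% with FT below. The lower calls were thus seen on ranks and for the most part not on the deposited scale.

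The 3 elements described next were chosen after their values had been seen. The SE of each came from a variance that limma shared across elements of like strength, and not from its own 4 libraries. Their p-values therefore do not measure the spread between replicates at these elements. The first and second had the lowest p in each direction among those whose deposited scores did not overlap, and the last lies beside a named stretch. The element at chr1:3768772-3770971 had maxScores of 290.8 in Sham Rep1, 191 in Sham Rep2, 176 in FT Rep1 and 164 in FT Rep2. It was lower in FT by a log2 difference of -0.88 (SE 0.14, limma adjusted p = 1.7e-05). The element at chr20:5251197-5253296 had maxScores of 77.1, 46.9, 125 and 161 in the same order, and its peaks were 1300, 800, 1800 and 2100 bp wide. It was higher in FT by a log2 difference of 1.12 (SE 0.24, limma adjusted p = 0.0149). The element at chr5:175820063-175822281 had maxScores of 174, 77.0, 62.6 and 85.7 and differed by -0.98 (SE 0.23, limma adjusted p = 0.0226). Its deposited scores overlapped. It lies just before the FT-higher stretch chr5:175823001-175825000, where FT peaks covered 1667 and 1762 bases, Sham Rep1 700 and Sham Rep2 0.

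**Figure D5:**
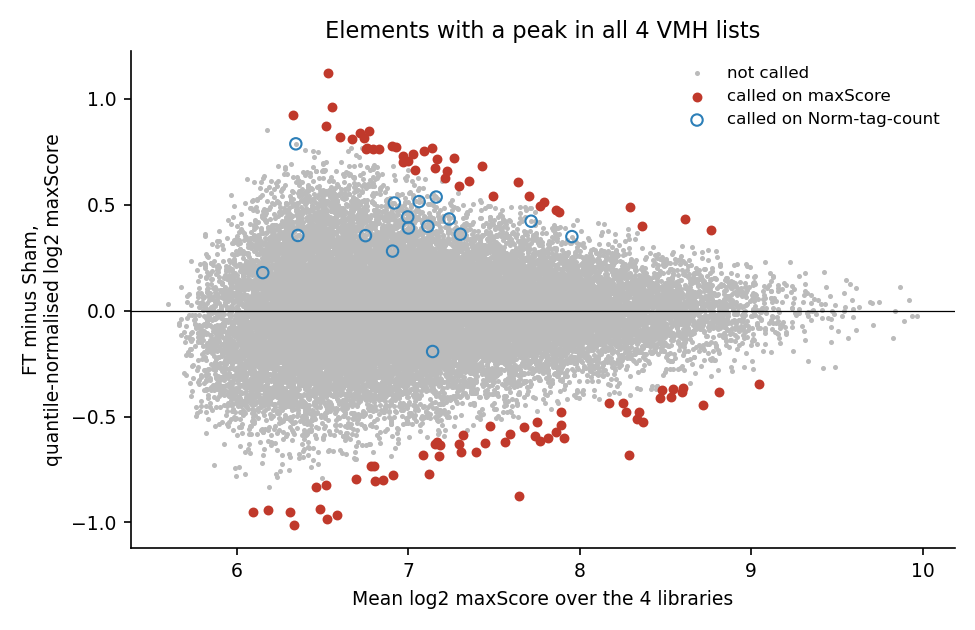
FT minus Sham difference of quantile-normalised log2 maxScore against the mean log2 maxScore, for the 24306 elements with a peak in all 4 VMH lists. The 96 elements called on maxScore (red) lie on both sides of 0, 41 above and 55 below, and the 16 called on Norm-tag-count (blue rings) are none of them.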

How the data were processed

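H3K27ac ChIP-seq peak lists were used as the authors deposited them. Per the study's methods, the reads were aligned to Rn5 and peaks were called with DFilter on each library separately, without pooling replicates. The submitters' processing notes name BWA and rn5, without versions. Each deposited list gives the authors' −log10 p-value per peak (from 4, with an upper limit of 200), maxScore and Norm-tag-count, which are scores that depend on the library, and a false discovery rate in percent, which was 0 throughout. Lists were therefore cut by rank, and limma was run on quantile-normalised values. Deposited scores are printed beside these as a description, and their differences can reflect the library. Read counts are not part of the lists, so no counting interval was computed for the peaks, and depth is unknown.

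Occupancy was computed in windows of 1000 bases covered to at least 50%, on full lists and on lists cut by maxScore to 27433 peaks, with Python 3.11.15. Starts were read as counting from 0. limma 3.58.1 (R 4.3.3, trend and robust settings) was run on quantile-normalised log2(Norm-tag-count + 1), adjusted over all elements with a peak in all 4 lists, and on log2 maxScore. The occupancy functions and the limma fit were tested on simulated data. The values simulated for limma were continuous and without ties, so that test does not cover the tied Norm-tag-counts. The stretches named are the 10 longest in each direction that separated the treatments on both kinds of list, ties broken by maxScore percentile and then position. The 10 elements with the lowest limma p in each direction, the second part of that rule, are mostly tied and are given by their sets of values.

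Replicate numbers pair the libraries, since the study's methods state that Sham and FT samples of 1 number were processed in parallel. Libraries of 1 number hardly deviated together: the replicate differences in Sham and FT correlated at -0.055 over elements for Norm-tag-count, -0.0029 for maxScore and -0.059 over windows. Alternatives were other thresholds, window sizes, list cuts, the replicate block and leaving out each library. The members and lists were chosen with earlier results of these data known. Input libraries, gene annotation and sequences were not used here.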

Additional observations from a re-analysis of the deposited data

How the results depend on the processing

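Without 1 library, the log2 ratio of peak number ran from -0.035 to 0.67, of covered length from -0.026 to 0.80 and of median width from 0 to 0.19, each lowest without Sham Rep2 and, for all 3, highest without Sham Rep1. With the replicate block these ratios were 0.31, 0.38 and 0.096, and limma called 20 elements on Norm-tag-count and 108 on maxScore. The block was applied to no other result. On Norm-tag-count the calls went from 15 higher and 1 lower in FT to 20 higher and 0 lower. With 3 libraries fewer must agree, and FT-higher windows numbered 4284 to 20215 on full and 3303 to 11205 on equal-size lists, Sham-higher windows 604 to 7634 and 1182 to 4471. The log2 ratio of treatment-separating windows to other pairings ran from -0.98 to 0.73 on full lists and from -0.59 to 0.94 on equal-size lists, and the Jaccard difference from -0.0644 to 0.134. Without Sham Rep1 both were highest. In limma, leaving out 1 library gave 52 to 447 calls, most without Sham Rep1, with the lone library assumed to vary like the other group.

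On full lists, FT-higher and Sham-higher windows numbered 7547 and 580 in windows of 500 bp, 156 and 2 in windows of 5 kb, 1932 and 121 when fully covered, and 2353 and 46 at a −log10 p of at least 10. Sham-higher windows alone numbered 493 at any overlap, 119 at a −log10 p of at least 6 and 844 for peak centres. After cutting to equal size they were 5056 and 1080 (500 bp), 149 and 3 (5 kb), 1405 and 990 (centres) and 1541 and 999 (equal covered length). FT-higher windows were 1263 at a −log10 p of at least 10 and 936 among the best 10000 peaks. Sham-higher windows were 990 at any overlap, 134 when fully covered and 804 on lists cut by Norm-tag-count. FT-higher windows outnumbered Sham-higher windows under each of these settings with all 4 libraries, but not without Sham Rep2, where the counts were 4284 and 7634 on full and 3303 and 4471 on equal-size lists. The ratio to other pairings turned to -0.33 in windows of 5 kb and -0.12 on lists cut by Norm-tag-count. The Jaccard difference turned to -0.0123 on full lists and -0.0161 in windows of 5 kb. The causes were not tested.

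Limma calls on Norm-tag-count numbered 2 on normal scores, 51 when centred on medians, 3306 at an adjusted p of 0.05 without a fold limit (3169 of them with an SE under 0.02), and 96 on maxScore. There were 0 with a pseudocount of 10 (3699 at an unadjusted p under 0.05), 0 for elements in at least 3 libraries (1316) and 0 of 24 elements with a mean Norm-tag-count of at least 20 (2). Neither limma count is stable. The share of FT-higher windows occupied elsewhere was 98.6% in at least 2 regions, 97.9% in Sham libraries, 98.1% in hypothalamic and preoptic regions, 99.8% at any overlap, 97.3% in windows of 5 kb and 98.6% for full VMH lists.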

Other observations

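Of the 23 windows that 3 VMH libraries and no library of any other region occupied on the full lists, 20 were missing from Sham Rep2, 2 from FT Rep2 and 1 from Sham Rep1. Each was a single window of 1 kb.

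Windows that LH and arc lists held and no region outside the hypothalamus and preoptic area did were scarce in every VMH library. Of 329 such windows, Sham Rep1 held 9.42%, Sham Rep2 3.65%, FT Rep1 11.2% and FT Rep2 10.6% on lists of equal size. Of the 34113 windows found in every other region, the same libraries held 93.5%, 81.7%, 92.1% and 94.2%. In both sets Sham Rep2 was lowest, and the other 3 libraries lay close together.

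The amygdala sample CMA gave the same order against LH as arc did. Windows of CMA per window of LH numbered 0.121 in Sham Rep1, 0.0900 in Sham Rep2, 0.204 in FT Rep1 and 0.211 in FT Rep2 on lists of equal size, and 0.239, 0.0900, 0.278 and 0.338 on full lists. Against arc, the ratio for CMA was 0.153, 0.138, 0.148 and 0.173, and the groups overlapped. With 2 libraries a group no test was made, and the part of punch position in these ratios was not tested.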
